A study of Mus musculus with 6 samples.

Results

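Chemokines are small secreted proteins that direct the movement of leukocytes, and their receptors sit on the cells that respond. All genes with protein-coding transcripts named as CC, CXC, CX3C or XC chemokine ligands, as their receptors, as the atypical receptors Ackr1 to Ackr4, or as Ccrl2, Pf4 or Ppbp were taken. This gave 63 genes, 40 ligands and 23 receptors, of 54309 genes listed, whether or not they had reads. Levels of these genes were summed over their protein-coding transcripts only, in TPM, a scale of transcript abundance that corrects for transcript length and library size, so that genes can be compared with each other.

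RNA was measured in distal pieces of the left sciatic nerve, taken 24 h after an operation, from C57BL/6 mice aged 6 to 8 weeks. There were 3 female and 3 male libraries, each pooled from 2 animals, and the stated aim was to compare female with male mice after axotomy, in which a nerve is severed. The labels conflict on the operation: a treatment field and the design text name axotomy for all 6 libraries, but the written procedure describes a sham operation in which the nerve was exposed and not cut. Every value below therefore belongs to nerves whose injury state the labels do not settle, and nerves without surgery were not analysed here. The strain is given as C57BL/6 in one field and C57BL6/J in the housing text.

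Libraries held 55272138 to 77610593 estimated reads. The Schwann cell marker Sox10, a transcription factor of this lineage, was present in every library, at 88.7 to 108.5 TPM in females and 111 to 144 TPM in males. Female library 2 and male library 1 also held 995 and 489.6 TPM of skeletal muscle markers, against 7.92 to 20.1 TPM in the other 4. Chemokine ligands and receptors took 0.479 to 0.597% of the reads of a library. Fewer cells of a type and less RNA per cell cannot be told apart in whole tissue.

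A chemokine signals by binding a receptor with a bundle of membrane-spanning helices, which activates inhibitory G proteins and, through them, the machinery of cell migration. CCL2 and its relatives draw monocytes through CCR2, and CXCL1, CXCL2, CXCL5 and related ligands draw neutrophils through CXCR2. Atypical receptors bind chemokines without G protein signalling and remove, transport or present them. In peripheral nerve, chemokines are known for the recruitment of macrophages and neutrophils to sites of damage.

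The family takes its names from the spacing of its first conserved cysteines, and 6 coding stretches are shown because they show the 4 classes of the family. The stretches come from GENCODE M21 transcripts whose lengths matched those in the deposited tables. They are written 5′ to 3′ with the defining cysteine codons in capitals.
Ccl2: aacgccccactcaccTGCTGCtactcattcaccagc
Ccl6: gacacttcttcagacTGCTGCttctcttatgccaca
Cxcl5: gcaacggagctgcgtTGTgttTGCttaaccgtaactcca
Cxcl14: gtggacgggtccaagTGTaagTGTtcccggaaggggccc
Cx3cl1: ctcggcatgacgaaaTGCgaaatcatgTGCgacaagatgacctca
Xcl1: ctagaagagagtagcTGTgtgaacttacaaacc
In Ccl2 the cysteines are codons 34 and 35, and in Ccl6 codons 50 and 51, with nothing between them. In Cxcl5 (codons 53 and 55) and Cxcl14 (codons 25 and 27) they are separated by a single residue. In Cx3cl1, the membrane-bound chemokine fractalkine, they are codons 32 and 36. Xcl1, or lymphotactin, lacks the partner, and its stretch holds only the cysteine at codon 32.

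Of the 63 genes, 48 had a mean of at least 1 TPM over the 6 libraries and are called detected here. Another 8 were low, at 0.1 to 1 TPM, and 7 were near absent, below 0.1 TPM. Among ligands 33 were detected, 3 were low and 4 were near absent. Among receptors the counts were 15, 5 and 3. Ccl1 and Ccl26 had no read in any library, which allows at most 3 reads, or 0.0543 CPM (read counts scaled to library size), in each.

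**Figure D1:**
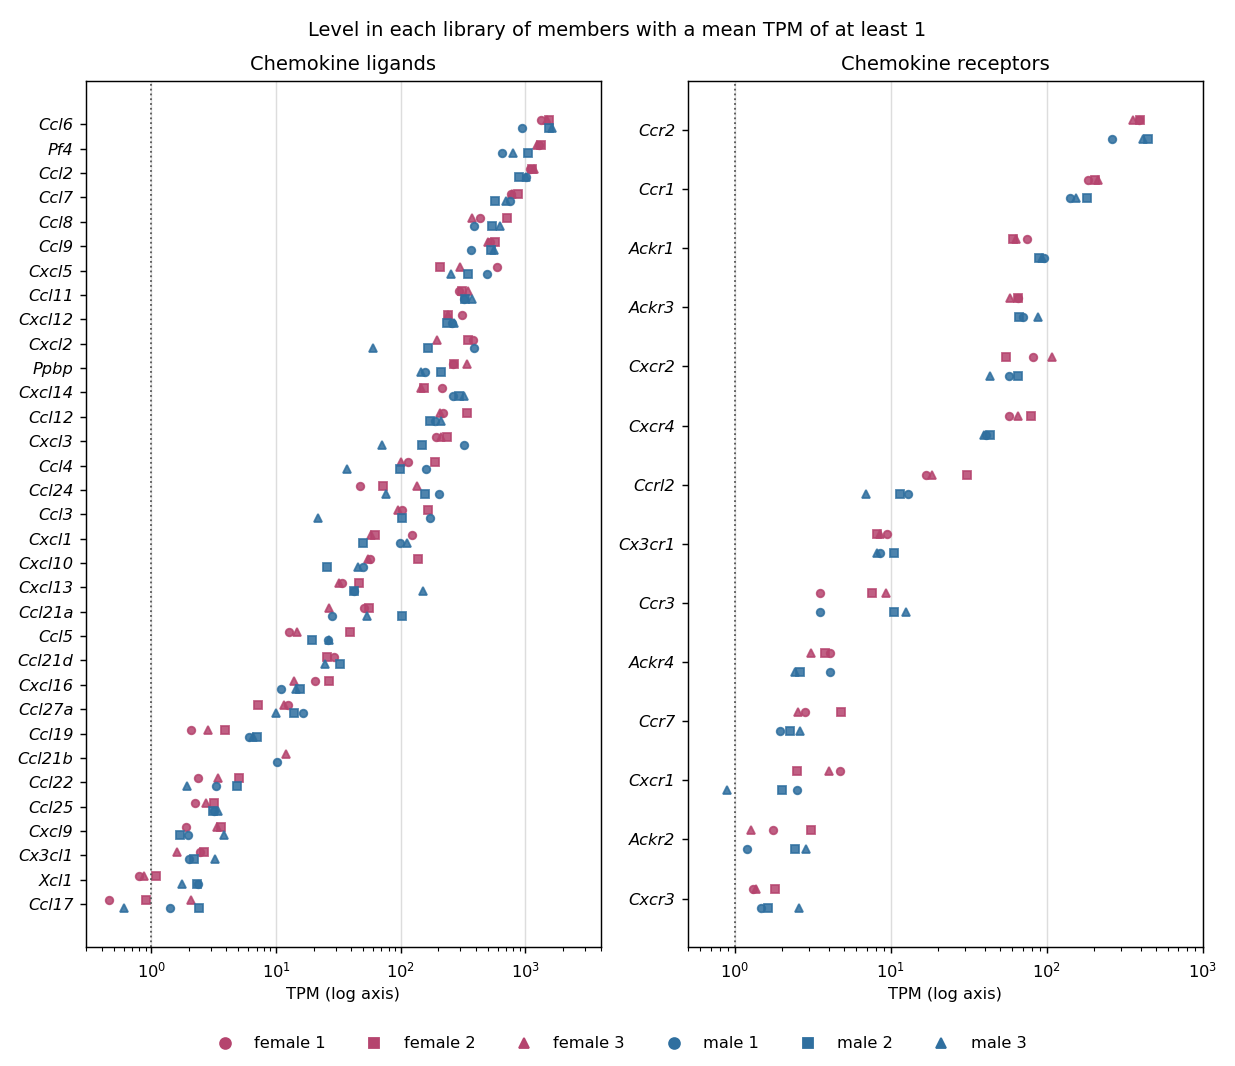
Level of detected chemokine ligands (left) and receptors (right) in TPM on a log axis, 1 symbol per library, with females in pink and males in blue. The dotted line marks 1 TPM, and libraries listed at 0 (Ccl21b and Ccl21d) are not drawn. Ligand levels spread from about the line to 1635 TPM (Ccl6 in male 3), led by Ccl6, Pf4 and Ccl2, and the receptors are led by Ccr2 and Ccr1.

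A few genes held most of the RNA of the family. Ccl6, Pf4 and Ccl2 made up 35.4 to 48.2% of the summed ligand TPM of a library, and with Ccl7 and Ccl8 they made up 51.0 to 62.5%. Ccr2, Ccr1 and Ackr1 made up 64.3 to 70.1% of the summed receptor TPM. The plot of levels by library shows these leading genes at the top of each panel, and the members below them thin out toward 1 TPM.

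The ligands of CCR2 that attract monocytes, Ccl2, Ccl7 and Ccl12, were all detected and together reached 1637 to 2339 TPM. Ccl2 stood at 1085, 1127 and 1163 TPM in female libraries 1 to 3 and at 1009, 891 and 1008 TPM in male libraries 1 to 3. Ccl7 stood at 763, 870.2 and 779 TPM in females and 757, 574 and 693 TPM in males. In TPM every female value of both genes was above every male value, but the sexes overlapped in CPM scaled by TMM, the scale of the test.

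The difference between female and male nerves was 0.18 (SE 0.09) on the log2 scale for Ccl2, with an adjusted p of 0.413, and 0.19 (SE 0.12) for Ccl7, with an adjusted p of 0.521 (edgeR). The difference in Ccl7 was 0.08 without male 2 and 0.33 without male 1. Ccl12, a mouse relative of Ccl2, ranged from 171.5 to 342 TPM, and its adjusted p was 0.466. None of the 3 passed the test. The marker list of monocytes and macrophages, which includes Ccr2, summed to 4382 to 6039 TPM in females and 3699 to 5362 TPM in males, with 11 of 12 genes above 0 in the log2 difference. None was called by edgeR, DESeq2 or the limma fits, and 1 had an unadjusted p under 0.05 (14.5% of all genes). Its part in these levels was not tested.

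The inflammatory CC ligands Ccl6, Ccl9, Ccl3, Ccl4 and Ccl5 were all detected. Ccl6, a ligand of CCR1, had the highest mean TPM of the whole family, with 1329, 1534 and 1494 TPM in females and 939.6, 1541 and 1635 TPM in males. Its lowest value was in male 1, and the sexes overlapped. Without male 1 the log2 difference turned from 0.05 (SE 0.17, adjusted p 0.924) to −0.12.

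Ccl9, its neighbour on chromosome 11 and also a CCR1 ligand, was likewise lowest in male 1, at 524, 570.0 and 499 TPM in females and 364, 533 and 560 TPM in males (adjusted p 0.702). Ccl3 and Ccl4, the macrophage inflammatory proteins, varied far more. Ccl3 was at 102, 164 and 94.2 TPM in females and 171, 103 and 21.6 TPM in males, a 7.91-fold spread, the widest of any detected member read in all 6 libraries. Ccl4 spread 5.11-fold and was, like Ccl3, lowest in male 3, at 37.2 TPM. Ccl5, made by T cells and other leukocytes, ranged from 12.7 TPM in female 1 to 39.2 TPM in female 2.

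Of the ligands of CCR3 and CCR8, which include the eotaxins that attract eosinophils, Ccl8, Ccl11 and Ccl24 were detected. Ccl8, whose mouse product acts on CCR8, stood at 436, 706 and 371 TPM in females and 388, 544 and 626 TPM in males. The sexes overlapped, with female 2 highest and female 3 lowest. Its log2 difference was −0.15 (SE 0.25, adjusted p 0.836).

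Ccl11 (eotaxin) was the steadiest of the detected members, at 295, 308 and 345 TPM in females and 323, 330.1 and 371 TPM in males, a 1.26-fold spread. The sexes overlapped (log2 difference −0.14, SE 0.08, adjusted p 0.479). Ccl24 (eotaxin 2) ranged from 47.4 to 203 TPM. Ccl17 and Ccl22, ligands of CCR4 made by dendritic cells and macrophages, were just above 1 TPM at means of 1.31 and 3.50 TPM, and Ccl20, the ligand of CCR6, was low at 0.154 TPM.

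Of the neutrophil-attracting ligands of CXCR2, 5 of 6 were detected: Cxcl5, Cxcl2, Ppbp, Cxcl3 and Cxcl1. Cxcl15, named as the lung chemokine lungkine, was near absent at 0.0374 TPM. Cxcl2 stood at 382, 346 and 197 TPM in females and 388, 165 and 60.4 TPM in males, so that the highest and the lowest library were both male. Cxcl3 followed with its highest level in male 1 (323 TPM) and its lowest in male 3 (71.1 TPM).

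Cxcl5 was at 587, 205 and 298 TPM in females and 491, 347 and 251 TPM in males, and Cxcl1 was highest in female 1 (123 TPM) and lowest in male 2 (50.2 TPM). In each of these 4 genes the sexes overlapped. The log2 differences were 0.55 (SE 0.77) for Cxcl2 and 0.09 (SE 0.58) for Cxcl5, with adjusted p of 0.798 and 0.964. The difference in Cxcl2 was 1.48 without male 1 and 0.10 without male 3, and that in Cxcl5 was −0.62 without female 1.

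The summed neutrophil markers, a list that includes Cxcr2, were 5903, 2902 and 5351 TPM in females and 4424, 3452 and 2109 TPM in males. The lowest library, male 3, was also the lowest for Cxcl2, Cxcl3, Ccl3 and Ccl4, and for the summed red blood cell markers (15840 TPM). The next lowest, female 2, was the highest library for Ccl4 (190 TPM) and the lowest for Cxcl5 (205 TPM). Of 11 neutrophil markers tested, 10 were above 0 in the log2 difference, with a median of 0.59. None was called by edgeR, and 4 had an unadjusted p under 0.05 (14.5% of all genes). DESeq2 called 1 (Mmp8), where it called 4.55% of all genes, and both limma fits called 0. The part of these cells in the ligand levels was not tested.

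Cxcl1, Cxcl2 and Cxcl3 lie in a cluster of CXC genes on chromosome 5, and their promoters are shown because the 3 genes share a match to the NF-kB motif and 2 of them had the same highest and lowest library. The windows run from 110 to 11 bases before the start of each gene on the plus strand (RefSeq, GRCm38.p6), written 5′ to 3′, with matches to the motif on either strand in capitals. The motif searched was GGG and TTTCC with any 2 bases between them.
Cxcl1, chr5:90891135-90891234: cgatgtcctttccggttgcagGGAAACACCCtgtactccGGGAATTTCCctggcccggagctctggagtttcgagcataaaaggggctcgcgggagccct
Cxcl2, chr5:90903789-90903888: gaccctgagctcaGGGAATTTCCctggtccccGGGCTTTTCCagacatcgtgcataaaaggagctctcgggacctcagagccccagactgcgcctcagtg
Cxcl3, chr5:90785991-90786090: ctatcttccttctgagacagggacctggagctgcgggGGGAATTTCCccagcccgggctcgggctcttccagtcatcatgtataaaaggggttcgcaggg
All 3 windows hold GGGAATTTCC, and Cxcl1 and Cxcl2 hold a further match each. Over windows from 250 bases before to 50 after the start, the motif was held by 535 of 32851 promoters (1.63%) and by 6 of the 48 members with an entry, which were these 3, Ccl9, Ccl20 and Ccr3. Cxcl5 had no entry. Matches are letters in a window and say nothing of binding in these nerves.

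Ppbp, the precursor of the platelet chemokine CXCL7, stood apart from the other CXCR2 ligands. It was at 263, 269 and 341 TPM in females and 156, 211 and 145.5 TPM in males. Every female value was above every male value. The log2 difference was 0.75 (SE 0.18), but the adjusted p of 0.168 did not pass the test.

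Pf4 (platelet factor 4), its neighbour on chromosome 5, had the same order of the sexes and the second highest mean of all ligands, at 1275, 1327 and 1243 TPM in females and 646, 1053 and 802 TPM in males. Again the sexes did not overlap, with a log2 difference of 0.57 (SE 0.16) and an adjusted p of 0.191. Platelets store both proteins in their granules, and Pf4 is also transcribed in some macrophages. A list of 7 other platelet genes, written after these values were seen, summed to 21.5 to 29.6 TPM in females and 23.9 to 35.1 TPM in males. None of those 7 was above 0 in the log2 difference, with a median of −0.45. Most of the sum came from Itga2b, with means of 21.6 TPM in females and 23.1 TPM in males. Its log2 difference was −0.13 (SE 0.14, adjusted p 0.707). Each of the others had a mean of at most 3.29 TPM in either sex, so the median rests on scarce transcripts. No gene of that list was called by edgeR, DESeq2 or the limma fits. An unadjusted p under 0.05 was found for 2 of these platelet genes, beside 14.5% of all genes. Their part in Pf4 and Ppbp was not tested.

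**Figure D2:**
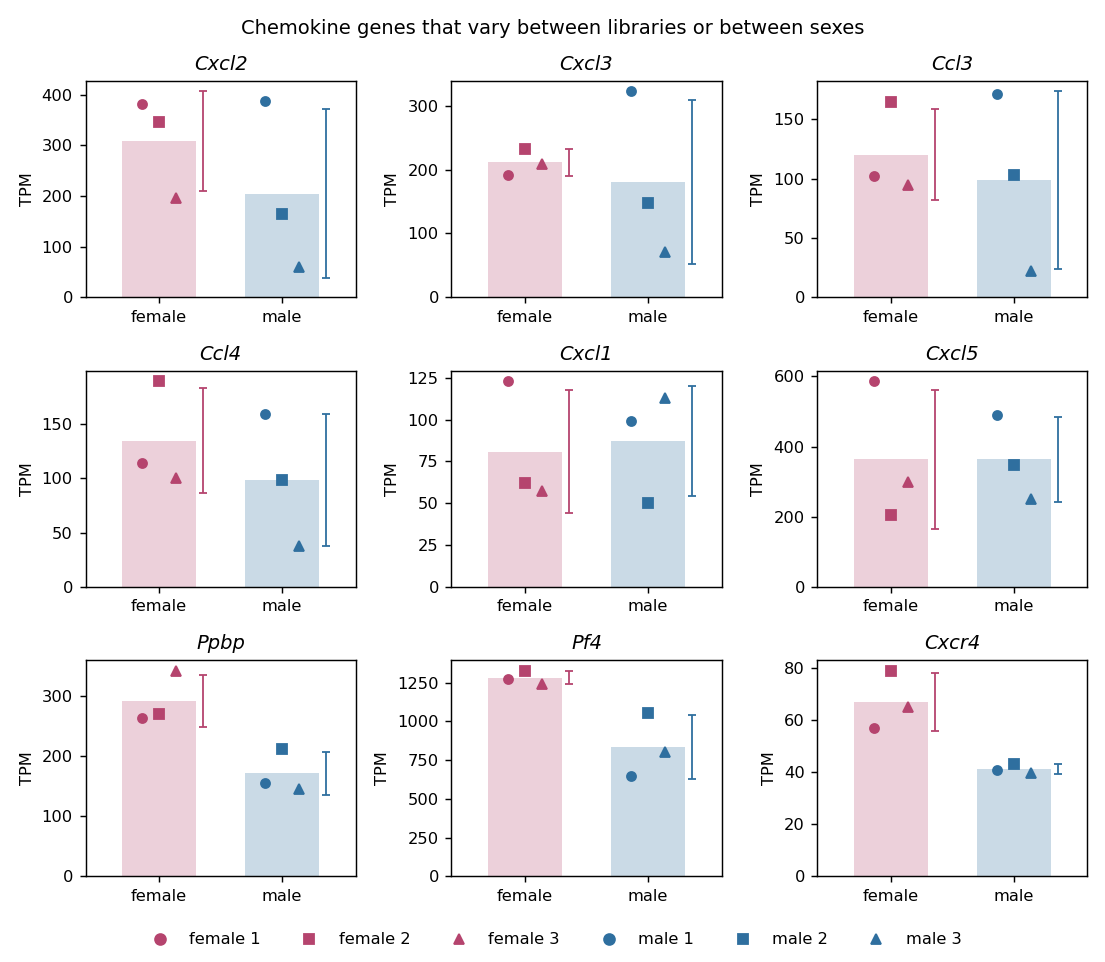
TPM of 9 chemokine genes in each library, with bars at the mean of 3 libraries of a sex and error bars of 1 SD beside them. Cxcl2, Cxcl3, Ccl3 and Ccl4 fall to their lowest value in male 3, while the females stand above all males in Ppbp, Pf4 and Cxcr4.

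The other CXC ligands included the homeostatic ligand Cxcl12, which signals through CXCR4, at 309, 241.5 and 238 TPM in females and 260.0, 235 and 269 TPM in males. The sexes overlapped, and the log2 difference of 0.07 (SE 0.13, adjusted p 0.847) turned to −0.09 without female 1. Cxcl14, a chemokine of epithelia and connective tissue, was at 213, 153 and 144.5 TPM in females and 261, 292 and 320.2 TPM in males. All males were above all females, with a log2 difference of −0.78 (SE 0.15) and an adjusted p of 0.127. The summed level of nerve fibroblast markers, led by Dcn and Col3a1, was also higher in each male library, at 4307 to 4974 TPM in females and 5644 to 7683 TPM in males. In that list 1 of 8 genes was above 0 in the log2 difference. None was called by edgeR or the limma fits, and 5 had an unadjusted p under 0.05 (14.5% of all genes). DESeq2 called 3 (Col1a1, Col1a2 and Dcn), where it called 4.55% of all genes. Summed markers of Schwann cells had the same order, at 6778 to 10670 TPM in females and 14740 to 18260 TPM in males. So did those of perineurial cells, at 316 to 397 TPM in females and 409 to 432 TPM in males. The part of any of these cell types in Cxcl14 was not tested.

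Cxcl13, which attracts B cells through CXCR5, was at 33.8, 46.1 and 31.9 TPM in females and 42.1, 42.5 and 150.1 TPM in males. Male 3 enlarged the log2 difference of −1.07 (SE 0.53, adjusted p 0.434), which was −0.29 without that library. Cxcl16, the membrane-bound ligand of CXCR6, had a mean of 17.1 TPM with a log2 difference of 0.58 (SE 0.23, adjusted p 0.325), and Cxcl17 was near absent with 2 reads in all.

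Among the interferon-inducible ligands of CXCR3, Cxcl10 was the most abundant. It stood at 57.0, 136 and 55.1 TPM in females and 50.2, 25.7 and 45.4 TPM in males. The females were above the males, by a wide margin in female 2 and a narrow one in the other two. The log2 difference was 1.01 (SE 0.45, adjusted p 0.386), and it ranged from 0.49 (without female 2) to 1.27 (without male 1) as each library was left out.

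Irf7, a transcription factor of the interferon response, was also highest in female 2, at 375 TPM. Unlike Cxcl10, it was lower in females 1 and 3 (170 and 165 TPM) than in the males (179.5, 206 and 227 TPM). Its part in Cxcl10 was not tested. An interferon response motif, GAAA repeated after any 2 bases, was found on either strand in 3.44% of promoters. Among the 48 members with a promoter entry it was held by 3, Cxcl10, Cxcl14 and Ccl19. As with the NF-kB motif, such matches say nothing of binding in these nerves. Cxcl9 had a mean of 2.73 TPM. Coding reads of Cxcl11 were found only in female 2, at 1.30 TPM.

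The homeostatic CC ligands guide lymphocytes and dendritic cells through lymphoid and mucosal tissue. All 6 that could be tested had log2 differences below 0 over their coding transcripts, with a median of −0.41. These 6 count the near-identical copies Ccl21a and Ccl21d as separate genes, and Ccl21d was at −0.07 (SE 2.18). Ccl19, a ligand of CCR7, was at 2.09, 3.91 and 2.86 TPM in females and 6.10, 6.98 and 6.54 TPM in males. The sexes did not overlap (log2 difference −1.20, SE 0.23, adjusted p 0.126).

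Ccl28, a mucosal ligand of CCR10, was low, at 0.256, 0.324 and 0.295 TPM in females and 0.691, 0.541 and 0.696 TPM in males. Again all males were above all females, with a log2 difference of −1.14 (SE 0.22, adjusted p 0.126). Ccl25, the CCR9 ligand of thymus and gut, and Ccl27a, a CCR10 ligand of skin, had means of 2.99 and 12.0 TPM and adjusted p of 0.840 and 0.528.

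The Ccl21 genes, further CCR7 ligands made by lymphatic vessels, are near-identical copies between which reads can be split only by estimate. Ccl21a was at 50.9, 55.5 and 26.7 TPM in females and 28.3, 101.6 and 53.7 TPM in males. Ccl21d was listed at 0 in female 3 and male 1, and these were the only libraries with a value for Ccl21b, of 12.1 and 10.2 TPM. The split between the copies is therefore uncertain, and the 3 genes summed to 38.5 to 134 TPM with no order by sex.

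Xcl1, which T and NK cells secrete to attract XCR1-bearing dendritic cells, was at 0.797, 1.10 and 0.868 TPM in females and 2.37, 2.33 and 1.76 TPM in males. These levels rest on 11 to 13 estimated reads per female library and 19 to 36 per male library. All males were above all females, and the log2 difference of −1.36 (SE 0.29, adjusted p 0.134) was the largest of the 53 members tested.

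T and NK cell markers moved the same way. Their sum was 18.9 to 24.9 TPM in females and 29.1 to 41.7 TPM in males, and none of the 12 was above 0 in the log2 difference, whose median was −0.82. None passed edgeR's test, 9 had an unadjusted p under 0.05 (14.5% of all genes), and DESeq2 called 3 (4.55% of all genes). The fits by limma-voom and limma on log2(TPM + 1) called 0. The part of these cells in Xcl1 was not tested. Cx3cl1 had a mean of 2.36 TPM and a log2 difference of −0.05 (SE 0.17, adjusted p 0.916).

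Of 10 CC receptors, 5 were detected. Ccr2, the receptor of inflammatory monocytes, was at 393, 397 and 356 TPM in females and 264, 445 and 414.5 TPM in males. Both the lowest and the highest value were male, and the log2 difference of 0.04 (SE 0.16, adjusted p 0.931) was −0.11 without male 1. Ccr1, carried by monocytes and neutrophils, was at 185, 203 and 213 TPM in females and 141, 180.3 and 153 TPM in males. The sexes did not overlap, with a log2 difference of 0.33 (SE 0.10) and an adjusted p of 0.203.

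Ccr3, the eotaxin receptor, was at 3.50, 7.61 and 9.31 TPM in females and 3.49, 10.4 and 12.4 TPM in males, with both sexes spread over the same range (adjusted p 0.803). Ccr7, which takes dendritic cells to lymph nodes, was at 2.80, 4.76 and 2.53 TPM in females and 1.94, 2.27 and 2.61 TPM in males. The sexes overlapped in TPM but not in scaled CPM (log2 difference 0.57, SE 0.24, adjusted p 0.339).

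The remaining CC receptors were scarce. Ccr9 had a mean of 0.777 TPM, with the males above the females in scaled CPM (log2 difference −0.81, SE 0.27, adjusted p 0.244), and Ccr6 had 0.192 TPM. Ccr4, Ccr10 and Ccr8 were near absent at 0.0920, 0.0501 and 0.0344 TPM.

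Among CXC receptors, Cxcr2, the main chemokine receptor of neutrophils, was at 81.2, 54.9 and 108 TPM in females and 57.0, 65.1 and 43.5 TPM in males. Female 3 was highest and male 3 lowest, and the sexes overlapped (log2 difference 0.51, SE 0.29, adjusted p 0.479). The difference was 0.26 without female 3 and 0.33 without male 3. Cxcr1 was scarcer, at 4.70, 2.48 and 4.02 TPM in females and 2.50, 2.01 and 0.883 TPM in males (log2 difference 1.06, SE 0.42, adjusted p 0.315), and it was also lowest in male 3. Cxcr3, of activated T cells, had a mean of 1.69 TPM, while Cxcr6 and Cxcr5 were low at 0.701 and 0.393 TPM.

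Cxcr4, the receptor of CXCL12 that holds leukocytes in bone marrow, had the smallest adjusted p of the family. It was at 57.0, 79.2 and 65.3 TPM in females and 40.9, 43.2 and 39.8 TPM in males. The males lay close together and below all females. The log2 difference was 0.67 (SE 0.11) with an adjusted p of 0.108 in edgeR, above the threshold of 0.05. It stayed between 0.56 and 0.74 as each library was left out. Across all alternative fits the adjusted p of Cxcr4 ran from 9.39e-05 (DESeq2) to 0.299.

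Cx3cr1, the fractalkine receptor of monocytes and resident macrophages, was at 9.43, 8.11 and 8.58 TPM in females and 8.53, 10.5 and 8.17 TPM in males (log2 difference −0.08, SE 0.12, adjusted p 0.822). The 6 libraries lay within a 1.29-fold range. Xcr1, which marks cross-presenting dendritic cells, was low at 0.557 TPM. The dendritic cell markers, a list that holds Xcr1 and Ccr7, summed to 429 to 549 TPM in females and 488 to 768 TPM in males, and 2 of 8 were above 0 in the log2 difference. DESeq2 called 2 genes of that list, Cd209a and Itgax, where it called 4.55% of all genes. In edgeR these 2 had opposite signs, with Itgax at 0.44 (SE 0.12, adjusted p 0.183) and not called. Cd209a, a lectin of dendritic cells, was the only one called by edgeR (−1.32, SE 0.13, adjusted p 0.0162), which called 0.11% of all genes. Its part in the levels of Ccr7 and Xcr1 was not tested.

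All 5 atypical receptors were detected. Ackr1, the Duffy antigen of venular endothelium and red blood cells, was at 74.3, 60.7 and 63.7 TPM in females and 95.9, 88.8 and 92.6 TPM in males. All males were above all females, with a log2 difference of −0.49 (SE 0.11) and an adjusted p of 0.156. Endothelial markers did not share this order, with sums of 172 to 248.5 TPM in females and 173 to 245 TPM in males. Red blood cell markers summed to 21370 to 32770 TPM in females and 15840 to 31230 TPM in males. The part of either cell type in Ackr1 was not tested.

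Ackr3, which removes CXCL12, was at 65.0, 65.5 and 58.5 TPM in females and 70.9, 66.8 and 87.8 TPM in males. The sexes were apart in TPM and overlapped in scaled CPM (log2 difference −0.26, SE 0.10, adjusted p 0.300). Ccrl2, which binds chemerin, was at 16.7, 30.8 and 18.4 TPM in females and 12.8, 11.4 and 6.90 TPM in males. All females were above all males (log2 difference 0.997, SE 0.33, adjusted p 0.263). Ackr4 and Ackr2, which clear CC chemokines, had means of 3.35 and 2.09 TPM.

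Ligands and receptors were then matched by 64 known pairs of 22 receptors, as a description of RNA levels with no test. The detected ligands Pf4 and Cxcl14 and the detected receptor Ccrl2 were in no pair and so were not matched. Both partners were detected in 49 pairs. Counted by receptor, 14 of 22 were detected together with at least 1 of their ligands, 7 had a detected ligand but were themselves below 1 TPM, and 1, Ccr6, was low along with its ligand Ccl20. None of the 22 receptors was detected without a detected ligand. The 7 receptors below 1 TPM were Ccr4, Ccr8, Ccr9, Ccr10, Cxcr5, Cxcr6 and Xcr1. With detection set at 0.5 TPM the count with both partners was 17, and with 1 TPM required in every library it was 13.

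The widest mismatch was Ccl8, with a mean of 512 TPM, beside Ccr8, whose mean of 0.0344 TPM came from 9 reads over all libraries. Cxcl13 at 57.8 TPM stood beside Cxcr5 at 0.393 TPM. In the other direction, Cx3cr1 was the only receptor whose level exceeded the summed level of its ligands in every library, with Cx3cl1 at 0.187 to 0.398 of the receptor's TPM.

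**Figure D3:**
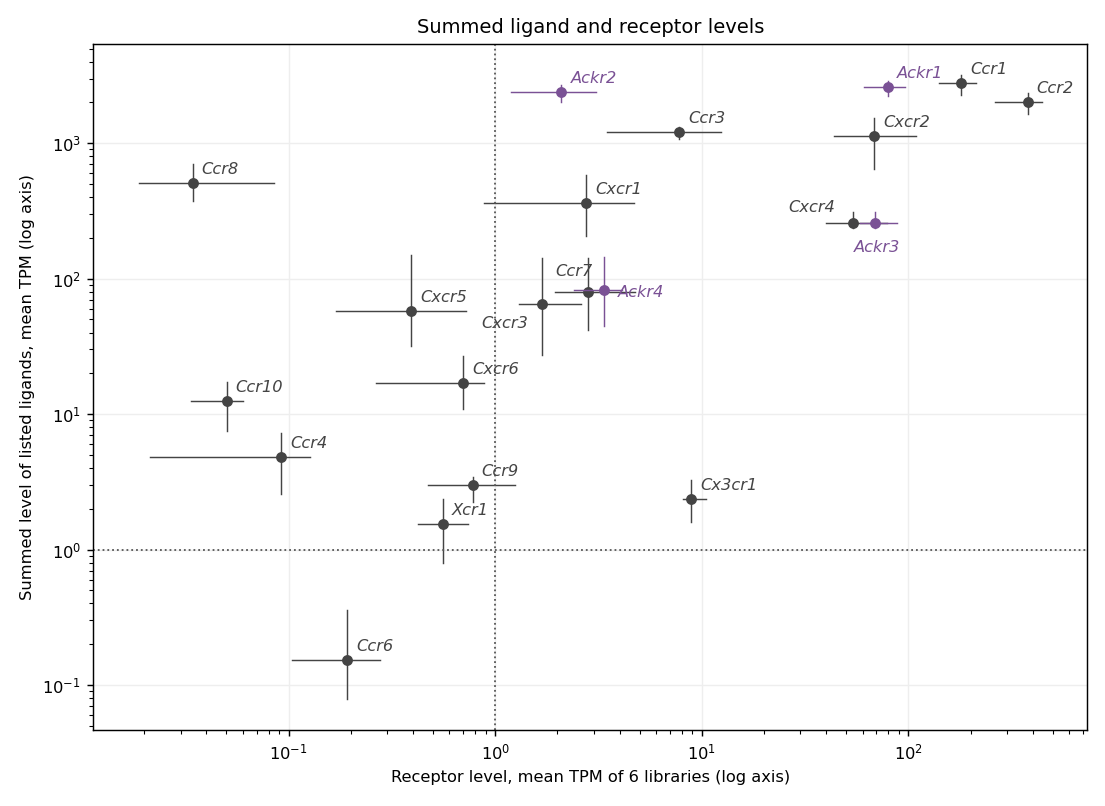
Mean TPM of each receptor shown (x axis, log scale) against the summed mean TPM of its listed ligands (y axis, log scale), with atypical receptors in purple. Bars span the lowest to the highest library above 0, and dotted lines mark 1 TPM. Receptors left of the vertical line are below 1 TPM, and Cx3cr1 is the detected receptor with the lowest ligand sum.

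The receptors with the highest levels met ligand sums of different size. These sums were taken over unlike numbers of listed ligands, from 1 for Cxcr4 to 6 for Ackr1. A ligand could count for several receptors, so the ratios are not like for like. The summed ligands of Ccr2 were 3.68 to 7.41 times the receptor's TPM, and those of Ccr1 were 13.5 to 19.2 times. For Cxcr2 the ratio was 10.2 to 25.6, and for Cxcr4, with Cxcl12 as its ligand, it was 3.05 to 6.77. Ackr1 met ligands at 24.9 to 43.0 times its level and Ackr3 at 3.07 to 4.75 times. In the plot of ligand sums against receptors, Ccr2 and Ccr1 lie at the upper right.

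The comparison of female with male nerves was made by edgeR's quasi-likelihood test over all 19128 genes kept by its filter on low counts, with p-values adjusted by the Benjamini-Hochberg method. Of the 63 members 53 were kept; the 10 not kept were Ccl21b, Cxcl11, Ccl20, Cxcl15, Cxcl17, Ccl1, Ccl26, Ccr6, Ccr10 and Ccr8. None of the 53 was called at an adjusted p under 0.05, where the test called 0.11% of all genes (21 genes, 3 or 0.0157% higher in females and 18 or 0.0941% in males). An unadjusted p under 0.05 was found for 15 members (28.3%; 8 higher in females and 7 in males), beside 14.5% of all genes (5.82% higher in females and 8.73% in males).

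The choice of tool mattered for the count. DESeq2 called 8 members where it called 4.55% of all genes (1.22% as higher in females and 3.34% in males): Ppbp, Pf4, Ccrl2 and Cxcr4 as higher in females, and Cxcl14, Ackr1, Ccl19 and Ccl28 as higher in males. limma-voom and limma on log2(TPM + 1) called 0. Without the filter on low counts, edgeR called Cxcr4 (adjusted p 0.0083) and Ccl19 (adjusted p 0.0313), where it called 0.673% of 31923 genes (0.16% as higher in females and 0.514% in males). No member was called in any of the 6 fits that each left out a library, nor in the fit without female 2 and male 1.

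In scaled CPM the sexes did not overlap for 13 of the 53 members (24.5%), close to the 21.2% of all genes. Every female library was above every male one for 7 members (9.65% of all genes): Pf4, Ppbp, Cxcl10, Ccr1, Cxcr4, Ccrl2 and Ccr7. Every male library was above every female one for 6 (11.5% of all genes): Cxcl14, Ccl19, Xcl1, Ccl28, Ackr1 and Ccr9. The median log2 difference of the 53 members was 0.05, with 28 above 0 and 25 below, beside 0.02 for all genes tested.

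**Figure D4:**
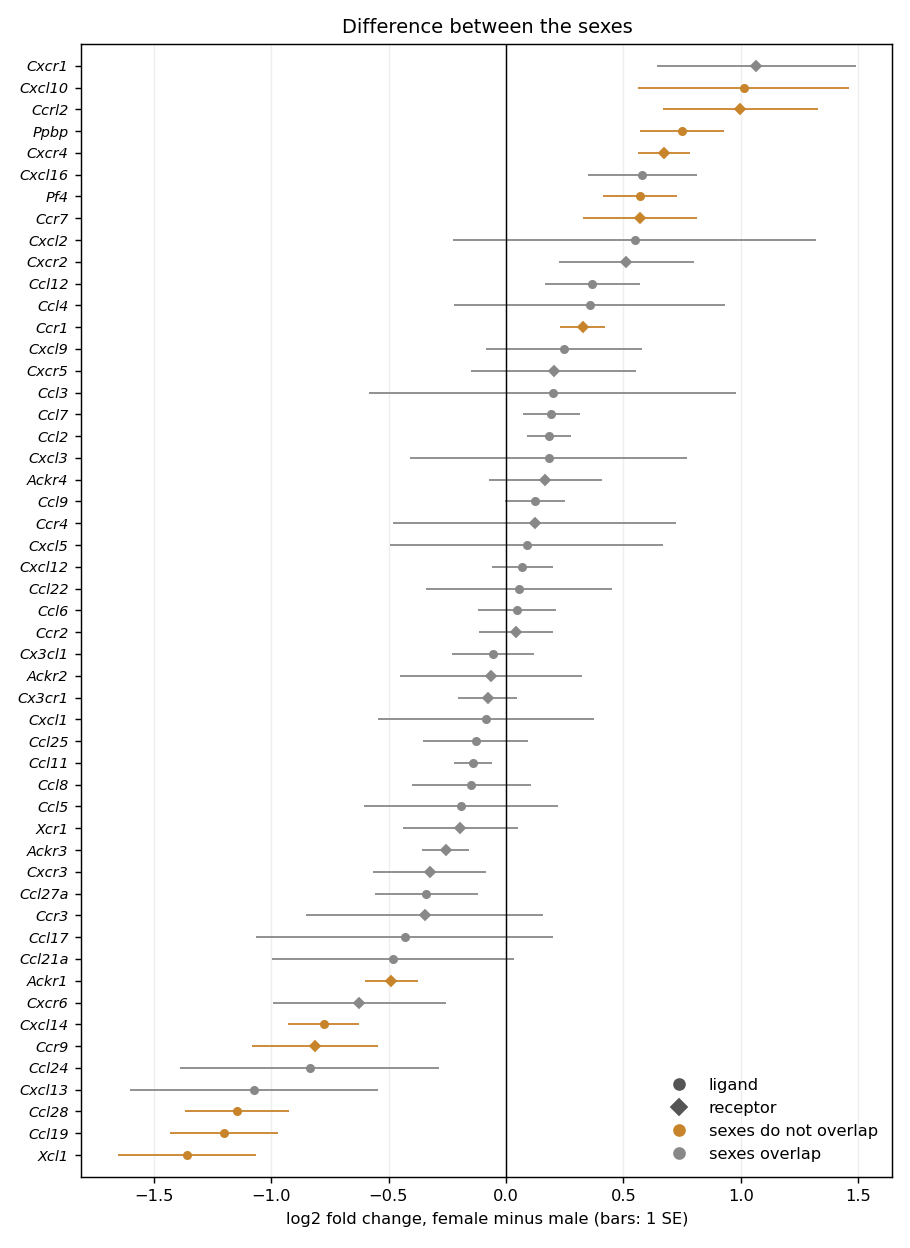
Log2 difference, female minus male, of tested members with bars of 1 SE, ligands as circles and receptors as diamonds. Members whose sexes do not overlap in scaled CPM are in orange, and Ccl21d is left out because of its SE of 2.18. Ccrl2, Cxcl10 and Cxcr1 lie near the upper end and Xcl1, Ccl19 and Ccl28 at the lower end.

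By role, the neutrophil-attracting ligands had 4 of 5 members above 0 and the monocyte-attracting ligands 3 of 3, with medians of 0.18 and 0.19. The homeostatic CC ligands had 0 of 6 above 0, with Ccl21a and Ccl21d counted as separate genes. The eosinophil-attracting group with Ccl8 had 0 of 3 above 0. CXC receptors had 4 of 6 above 0 with a median of 0.36, and atypical receptors had 2 of 5. In each of these groups no member was called by edgeR. The plot of differences with their errors shows that bars of 1 SE are widest for Cxcl2 and Ccl3 and narrow for Ccl11, Ccl2 and Ccr1.

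The other genes of the pathway came from lists of G proteins and regulators at the receptor, of signalling to migration, of ligand processing and chemerin, and of NF-kB and interferon factors, with 75 genes in all, of which 73 were tested. None was called by edgeR, limma-voom or limma on log2(TPM + 1), while DESeq2 called 8, where it called 4.55% of all genes, and 23 (31.5%) had an unadjusted p under 0.05, beside 14.5% of all genes. The log2 difference was above 0 for 57 of the 73, with a median of 0.15.

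At the receptor, the G protein subunits Gng5, Gnb2 and Gnai2 led with means of 424, 350.0 and 325 TPM in females and 398, 365 and 315 TPM in males. In the migration list the small GTPases Rac1, Rap1b and Rap1a led, with 460.0, 380.0 and 175 TPM in females and 499, 335 and 173 TPM in males. The induction list was led by Irf7 and Nfkbia (the inhibitor of NF-kB), with 237 and 137 TPM in females and 204 and 120.0 TPM in males. None of these 8 genes differed by more than 0.23 on the log2 scale.

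Mif, a cytokine that binds CXCR2 and CXCR4, and Cd74, the MHC class II chaperone that is also its receptor, moved in opposite directions. Mif was at 423, 552 and 418.5 TPM in females and 363, 334 and 266 TPM in males, and Cd74 was at 539, 653 and 456 TPM in females and 620.4, 823 and 997 TPM in males. In TPM all females were above all males for Mif (log2 difference 0.47, SE 0.14, adjusted p 0.207), while the sexes overlapped for Cd74 (−0.56, SE 0.18, adjusted p 0.229). DESeq2 called both. Rarres2, which encodes chemerin, the ligand of Ccrl2, had means of 258 TPM in females and 267 TPM in males (adjusted p 0.852).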

How the data were processed

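RNA-seq libraries were made from 500 ng of RNA (RIN 7.0 or above) by poly-A selection with strand marking, and read in pairs of 100 nt, per the labels' protocols. Trimmomatic 0.39 and Salmon 1.5.2 were used, along with MultiQC 1.9, per the submitters' processing notes. The deposited tables list 140789 transcripts, each with its TPM and its estimated count, which the authors did not normalize, per the file headers. Genome build, annotation and use of strand in counting: not given in the sources used here. Salmon divides reads between similar transcripts by estimate.

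Counts were summed per gene and rounded, over 122 protein-coding transcripts for the 63 members and over all transcripts for other genes. Libraries were scaled by TMM (factors 0.968 to 1.02) and tested with edgeR 4.0.16 (quasi-likelihood, robust, filterByExpr, no covariate) in R 4.3.3. Log2 differences are female minus male, and TPM values are shown per library. The SE of a log2 difference was derived from edgeR's F statistic, as the size of the difference divided by the square root of F. The common biological coefficient of variation was 0.183. In the deepest to shallowest library, 3 reads equal 0.0386 to 0.0543 CPM, and such limits cover counting error only. Libraries came from separate pools of animals, and no pair agreed within sampling noise (chi-square per degree of freedom at least 26.3). The test was tested on simulated counts with true log2 differences of 0.5, 1 and 2. There edgeR recovered 19.2, 46.4 and 83.3% of the changed genes, with 9 false calls. DESeq2 recovered 33.3, 57.1 and 89.4%, with 40 false calls.

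The alternatives were RLE and upper quartile scaling, no filter or a mean CPM of 1, DESeq2 1.42.0, limma-voom and limma 3.58.1 on log2(TPM + 1), a replicate block, each library left out, female 2 and male 1 left out together, all transcripts of the members, and no robust estimation. Values in every library are given for the 12 ligands and 10 receptors of highest mean TPM and for the 6 members of largest log2 difference. From each pathway list the 3 genes of highest mean TPM are named. Results of a few genes that these rules name are not reported here. Other members given by library, and the marker Sox10, were chosen after their values were seen. Members and lists were chosen with earlier results of these data known. Promoters are from a RefSeq table (GRCm38.p6) that held 48 of the 63 members. Stretches around the cysteines are from GENCODE M21.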

Additional observations from a re-analysis of the deposited data

Results flagged for a closer look

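For 3 ligands most reads lay in transcripts that are not annotated as protein coding and were not used above. For Ccl19 these held a mean of 718 estimated reads per library, and 14.1% of all its reads were in coding transcripts. They were 365 to 598 in females and 760.0 to 1100 in males, so the males were above the females here as in the coding transcripts. For Ccl25 they held a mean of 294 reads, with 21.4% of reads in coding transcripts. They were 293 to 359 in females and 230 to 275 in males, while the log2 difference over coding transcripts was −0.13. These reads are not scaled to library size, and males 2 and 3 were the shallowest libraries. For Cxcl11 such transcripts held a mean of 79.2 reads, with 11.1% in coding transcripts. Cxcl11 had such reads in all 6 libraries, 45.0 to 123 each, although coding reads were found only in female 2 (59.2). Groups of 3 libraries were not tested for outlying values.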

How the results depend on the processing

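The number of genes called was 21. It was 215 without the filter on low counts, 871 with DESeq2, 9 with limma on log2(TPM + 1), and 4 to 202 as each library was left out, the highest without female 3. Members called went from 0 to 2 without the filter and to 8 with DESeq2, and were 0 in the fits that left out each library. The median log2 difference of the members was −0.019 to 0.121 as each library was left out and −0.023 without female 2 and male 1. Libraries of the same replicate number did not deviate together (correlations −0.0969, −0.188 and 0.0138). With the replicate block 3 genes were called, and Cxcl5 was at −0.04.

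Of the 27 named members, 7 changed sign in some setting. Without male 1, Ccl6 was at −0.12 and Ccr2 at −0.11. Without female 2 and male 1, Ccl6 was at −0.16, Ccl9 at −0.02 and Ccr2 at −0.10. Without female 1, Ccr2 was at −0.03, Cxcl12 at −0.09 and Cxcl5 at −0.62. Ccl8 was at 0.02 without female 3, and Cx3cr1 at 0.03 without male 2. Cxcl5 was also at −0.17 without male 3, at −0.04 with limma-voom and at −0.09 with limma on log2(TPM + 1). The cause was not tested. The ranges over the fits that left out each library were −0.12 to 0.15 for Ccl6, −0.43 to 0.02 for Ccl8, −0.11 to 0.19 for Ccr2, −0.19 to 0.03 for Cx3cr1, −0.09 to 0.16 for Cxcl12 and −0.62 to 0.44 for Cxcl5. In the same fits Ccr3 ran from −0.70 (without male 1) to −0.05 (without female 1), Ccl9 from 0.00 (without male 1) to 0.21 (without male 2) and Ccl11 from −0.21 (without female 3) to −0.09 (without female 2). Low read numbers limit Xcl1, Ccl28 and the members below 1 TPM.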
